A study of Rattus norvegicus with 20 samples.

Results

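The subunits of the respiratory chain and of ATP synthase were examined in hippocampal RNA of Gunn rat pups. They were chosen by gene symbol, with a mean of at least 10 reads over the 20 libraries. Of 32883 genes listed, 102 rows matched the symbols and 92 reached that mean, 79 of them nuclear genes and 13 genes of the mitochondrial genome. The nuclear genes comprised 34 of complex I, 4 of complex II, 10 of complex III, 16 of complex IV and 15 of complex V. The mitochondrial genome supplied 7 more of complex I, 1 of complex III, 3 of complex IV and 2 of complex V. Ndufa4 and its paralog Ndufa4l2 were placed in complex IV, where the protein is found, although their symbols name complex I. All 92 passed the expression filter of the gene tests.

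The respiratory chain sits in the inner mitochondrial membrane. Complexes I and II pass electrons from NADH and succinate to ubiquinone, complex III passes them on to cytochrome c, and complex IV hands them to oxygen. Complexes I, III and IV pump protons out of the matrix, and ATP synthase (complex V) lets them back to make ATP. Most subunits are encoded in the nucleus and imported, whereas a few hydrophobic core subunits are encoded and translated inside the mitochondrion, so the complexes depend on both genomes. Neurons meet most of their energy demand through this pathway, and it expands in brain as the circuits mature after birth.

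The libraries came from polyA RNA of 1 hippocampal lobe per pup at postnatal day 6, with 5 pups in each of 4 groups. The jj PT group held homozygous, jaundiced pups given phototherapy (PT), which was intermittent LED light from postnatal day 4, for 12 h in all in cycles of 3 h. The jj untreated group held jaundiced pups without light. The Nj PT and Nj untreated groups held heterozygous, non-jaundiced controls with and without the same light, which the source labels write as Jj. All pups were of the Gunn strain, which carries an inherited defect of bilirubin conjugation in the liver, so the Nj pups also carried 1 copy of the allele. The comparisons ask what light and jaundice each go with in the developing hippocampus. The series text gives 5 rats in each of the 4 groups for RNA, although it also speaks of 6 untreated controls.

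The libraries held 16882652 to 27112749 counted reads. Levels are given in CPM, the counts of a gene relative to the size of its library after scaling by the trimmed mean of M-values (TMM), and they were not compared between genes because transcript lengths were not used. The excitatory neuron genes Camk2a, Slc17a7 and Nrgn averaged 403, 1099 and 806 CPM in PT pups and 357, 993 and 711 CPM in untreated pups, so the labelled tissue's neurons were detected. Choroid plexus content varied widely: Ttr, the transport protein that marks this epithelium, lay above 1000 CPM in 5 PT libraries and 2 untreated ones. The library called untreated jj 3 stood apart from the other 19. It had the highest Ttr level (9662 CPM), and each of its 13 mitochondrial-genome transcripts lay below every other library. Its nuclear subunit genes were scattered, with 13 of them the lowest and 17 the highest of the 20 libraries. All PT libraries share a title prefix that no untreated library has, so whatever the prefix stands for and the light cannot be told apart. The untreated jj libraries have a prefix of their own, and the untreated Nj libraries have 3, with 3 libraries under 1 of them.

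With phototherapy, 19 of the 92 subunit genes rose and 0 fell when the effect was averaged over the genotypes (edgeR quasi-likelihood test, Benjamini-Hochberg adjusted over 15272 genes, threshold 0.05). Of all genes tested, 4.35% were called higher, 5.74% lower and 10.1% in either direction. The 19 were all nuclear and were spread over the complexes: 5 of complex I, 2 of complex II, 2 of complex III, 6 of complex IV and 4 of complex V. The rises were small, from 6.97% to 12.5% (log2 0.10 to 0.17). In all, 71 of the 79 nuclear genes and the 13 mitochondrial-genome transcripts had positive fold changes, against 50.4% of all genes, although Mt-co3 and Mt-nd6 were negative without untreated jj 3. The median log2 fold change was 0.09 over the nuclear genes and 0.15 over the mitochondrial ones, and 0.00 over all genes tested. In bulk tissue, more cells of a type and more RNA per cell cannot be told apart.

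**Figure D1:**
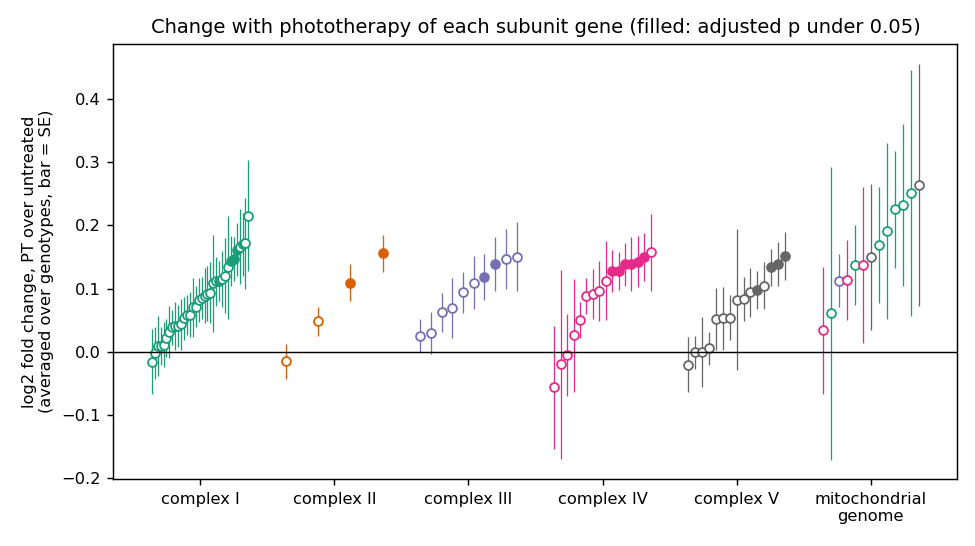
Log2 fold change (PT over untreated, averaged over the genotypes) of each of the 92 genes, ordered by size within the nuclear genes of each complex and within the mitochondrial genome; bars are ± 1 SE and filled points have an adjusted p under 0.05. The filled points lie between 0.10 and 0.17, and the mitochondrial genes lie between 0.03 and 0.26 with none filled.

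Summed over the 79 nuclear genes, the libraries held 10909, 10975, 10759, 10798 and 10924 CPM in PT jj pups, against 10324, 10089, 10724, 10064 and 10478 CPM in untreated jj pups. In Nj pups the sums were 10926, 10558, 10681, 10647 and 10818 CPM with PT, against 10483, 10682, 10080.3, 9738 and 10156 CPM without. All PT libraries thus lay above 8 of the 10 untreated ones, and the exceptions were untreated jj 3 and untreated Nj 2. Summed over the 13 mitochondrial genes, the level was 41473 ± 1683 CPM in PT pups and 37941 ± 5662 CPM in untreated pups (SD, n = 10 each), and the ranges overlapped. The lowest sum, 24367 CPM, was that of untreated jj 3, and the highest, 45127 CPM, that of untreated jj 1.

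**Figure D2:**
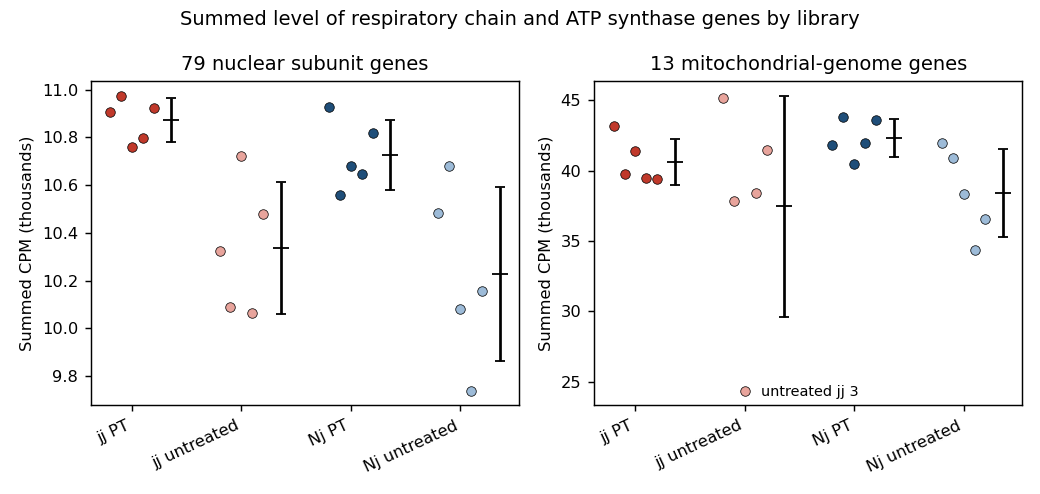
Summed CPM of the 79 nuclear genes (left) and of the 13 mitochondrial-genome genes (right), divided by 1000, with 1 point per library and bars of mean ± SD (n = 5); the axes do not start at 0. The nuclear sums of PT pups lie between 10558 and 10975 CPM, and untreated jj 3 lies far below the rest on the right.

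Markers of other cells moved in the same comparison, where 4.35% of all genes were called higher and 5.74% lower. Of 8 mature neuron genes, 6 rose, and their summed level was 4887 to 5416 CPM in PT pups and 4232 to 5047 CPM in untreated pups. Of 8 immature neuron genes, 5 fell, with sums of 7211 to 8510 CPM in PT pups and 7425 to 9448 CPM in untreated pups. Of 8 genes of dividing cells, 6 fell, with sums of 189 to 221 CPM in PT pups and 207 to 251 CPM in untreated pups. Of the other lists, 3 of 8 microglia genes rose, 3 of 8 astrocyte genes rose and 1 fell, 3 of 4 interneuron genes rose, and 1 of 4 measured oligodendrocyte genes rose. The part of these cell types in the rise of the subunits was not tested. None of the 11 measured choroid plexus genes, 8 meninges genes or 4 red blood cell genes passed by edgeR, and 0, 4 and 1 of them had an unadjusted p under 0.05, against 24.6% of all genes. Otx2 of the choroid plexus and Mog and Mobp of oligodendrocytes were near 0 and were not tested. The choroid plexus genes all had positive fold changes, with a median of 0.71 on the log2 scale, and their sums were 62.9 to 8676 CPM in PT pups and 51.5 to 10814 CPM in untreated pups. Of the 8 meninges genes, 7 had negative fold changes, among them the 4 with an unadjusted p under 0.05 by edgeR, and the median was -0.37. Meninges sums were 431 to 970 CPM in PT pups and 399 to 1122 CPM in untreated pups. Of the 4 red blood cell genes, 3 had negative fold changes (median -0.19). With log2 Ttr as a covariate 22 subunit genes rose, and 3 rose when the 7 libraries with Ttr over 1000 CPM were left out (Atp5po, Cox6c and Atp5mf), while the nuclear median log2 fold change was 0.09 both times. These counts were not set beside the share of all genes called in the same fits.

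The strongest evidence was for Sdhd (ENSRNOG00000022980), which encodes 1 of the membrane anchors of succinate dehydrogenase, complex II. Sdhd had 125, 133, 133, 126 and 130.02 CPM in PT jj pups, against 111, 113, 116, 120.5 and 118 CPM in untreated jj pups. It had 131, 129, 131, 129 and 132 CPM in PT Nj pups, against 126, 122, 117, 107 and 114 CPM in untreated Nj pups. Within either genotype the PT and untreated libraries did not overlap. The log2 fold change was 0.16 ± 0.03 (SE; edgeR adjusted p = 0.00179). The other anchor, Sdhc (ENSRNOG00000003163), also rose (log2 0.11 ± 0.03, SE; edgeR adjusted p = 0.0175), with 140.01 ± 5.59 CPM in PT pups and 129.8 ± 4.62 CPM in untreated pups (SD, n = 10 each). All 10 PT libraries lay above the untreated median of Sdhc, and 7 above the untreated maximum. Sdha, the flavoprotein that oxidises succinate, averaged 202 ± 4.49 CPM in PT pups and 195 ± 5.21 CPM in untreated pups and did not pass (log2 0.05; edgeR adjusted p = 0.207). Sdhb, the iron-sulphur subunit, averaged 95.4 ± 3.20 CPM in PT pups and 96.4 ± 2.97 CPM in untreated pups (log2 -0.02, 95% interval -0.07 to 0.04; edgeR adjusted p = 0.774). Whether anchors and catalytic subunits differ was not tested.

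The 4 matched genes with the lowest p-values are shown by their promoters, because the genes that rose came from all 5 complexes. Each window runs from 250 bases before the start to 50 bases from it on, 5′ to 3′ on the gene's strand, in RefSeq's table for build GRCr8. Capitals mark matches to the core motifs of factors known to drive nuclear subunit genes, on either strand: NRF1 (GCGCA and GCGC with any 1 base between them), GABP of the ETS family (CCGGAAG), YY1 (AANATGGC) and Sp1 (GGGCGG).
Sdhd, complex II anchor, chr8:59850592-59850891, minus strand: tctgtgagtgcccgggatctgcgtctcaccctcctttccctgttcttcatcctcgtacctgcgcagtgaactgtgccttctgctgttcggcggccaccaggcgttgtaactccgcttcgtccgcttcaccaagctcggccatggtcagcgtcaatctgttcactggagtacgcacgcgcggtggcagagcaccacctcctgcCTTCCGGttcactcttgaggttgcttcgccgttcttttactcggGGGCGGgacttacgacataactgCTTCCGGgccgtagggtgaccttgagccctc
Atp5po, ATP synthase peripheral stalk, chr11:44657434-44657733, minus strand: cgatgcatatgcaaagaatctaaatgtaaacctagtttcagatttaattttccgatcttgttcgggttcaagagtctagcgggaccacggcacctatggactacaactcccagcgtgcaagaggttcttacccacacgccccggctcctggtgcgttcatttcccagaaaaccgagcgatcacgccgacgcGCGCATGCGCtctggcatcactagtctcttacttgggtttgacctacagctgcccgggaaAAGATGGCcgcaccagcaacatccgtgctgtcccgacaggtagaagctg
Cox4i1, complex IV, chr19:65630133-65630432, plus strand: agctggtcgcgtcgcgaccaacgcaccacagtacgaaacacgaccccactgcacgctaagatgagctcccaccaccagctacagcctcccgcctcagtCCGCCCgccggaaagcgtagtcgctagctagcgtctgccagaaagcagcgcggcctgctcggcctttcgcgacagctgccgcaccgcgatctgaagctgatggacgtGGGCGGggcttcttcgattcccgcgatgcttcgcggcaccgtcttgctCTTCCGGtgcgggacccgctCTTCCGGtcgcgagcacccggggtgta
Cox7c, complex IV, chr2:18579121-18579420, minus strand: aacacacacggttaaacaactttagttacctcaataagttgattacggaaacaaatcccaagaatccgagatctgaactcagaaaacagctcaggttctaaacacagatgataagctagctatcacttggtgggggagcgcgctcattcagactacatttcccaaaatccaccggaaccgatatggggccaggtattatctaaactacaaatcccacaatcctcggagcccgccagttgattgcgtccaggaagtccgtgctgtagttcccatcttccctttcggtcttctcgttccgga

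The Sdhd window held 2 GABP cores and 1 Sp1 core, and that of Cox4i1 held 2 of each. The Atp5po window held 1 NRF1 core at 59 bases before the start and 1 YY1 core at the start. The Cox7c window held none of the 4 letter strings. Of 77 nuclear symbols, 66 matched a single promoter, and 13 of these (19.7%) held the NRF1 core, against 4.25% of all 33469 windows of the table. The GABP core was in 18 (27.3%, against 8.75% of all windows) and the YY1 core in 29 (43.9%, against 6.96%). The Sp1 core was in 26 (39.4%, against 33.1%). The sets compared were unlike: members were limited to symbols with a single window, whereas all windows were taken without that limit and regardless of expression. Among the 16 matched genes that rose with PT, 2 held the NRF1 core, 5 the GABP core, 8 the YY1 core and 5 the Sp1 core. The YY1 string holds ATG, the letters of a start codon, and the windows run 50 bases past the start. Matches that lie at start codons were not told apart from others. These matches describe the letters only, and binding was not measured.

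In complex I, 5 of 34 nuclear genes rose and 29 did not pass, where 4.35% of all genes were called higher. Ndufs1 (ENSRNOG00000011849), the largest core subunit, which carries iron-sulphur clusters along the electron path, had 170.04, 178, 185, 169.7 and 166 CPM in PT jj pups, against 168, 159, 133, 159 and 161 CPM in untreated jj pups. Ndufs1 had 174, 185, 180.5, 169 and 192 CPM in PT Nj pups, against 171, 169, 167, 142 and 152 CPM in untreated Nj pups. Untreated jj 3 was the lowest of all libraries, and all 10 PT libraries lay above the untreated median. The log2 fold change of Ndufs1 was 0.16 ± 0.04 (SE; edgeR adjusted p = 0.0158). It was the only 1 of the 7 nuclear core subunits to pass. The other 6 had log2 fold changes from -0.02 (Ndufs7) to 0.12 (Ndufv2), and the median over the 7 was 0.04.

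Among the 27 accessory subunits of complex I, 4 rose, against 4.35% of all genes. Ndufb9 (ENSRNOG00000009364), an accessory subunit of the membrane arm, had 106, 110.4, 109.6, 106 and 105 CPM in PT jj pups, against 95.7, 97.2, 105, 94.5 and 98.2 CPM in untreated jj pups. For Nj pups the values were 104, 107, 103, 98.5 and 110.01 CPM with PT, against 95.9, 103, 95.2, 81.9 and 89.5 CPM without. In jj pups the groups were just apart, at 105.4 against 105.0 CPM, and in Nj pups they overlapped. Ndufb9 had a log2 fold change of 0.15 ± 0.04 (SE; edgeR adjusted p = 0.0103). Ndufs4 (ENSRNOG00000011383), needed for a stable complex I and mutated in Leigh syndrome in humans, showed the highest fold change of the 19 (log2 0.17 ± 0.05, SE; edgeR adjusted p = 0.0333). It ranged over 115 to 142 CPM in PT pups and 102 to 134 CPM in untreated pups. Ndufb6 and Ndufc1, small subunits of the membrane arm, rose by 0.11 and 0.14 on the log2 scale (edgeR adjusted p = 0.0263 and 0.0237). The largest fold change among all nuclear genes belonged to Ndufb3 (log2 0.22 ± 0.09, SE), which did not pass (edgeR adjusted p = 0.129). In Ndufb3 the untreated Nj libraries ran from 25.6 to 44.1 CPM.

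In complex III, 2 of 10 nuclear genes rose and all 10 had positive fold changes, against 4.35% and 50.4% of all genes. Uqcrc2 (ENSRNOG00000036742), 1 of the large core proteins on the matrix side, had 286, 281, 309.98, 263 and 285 CPM in PT jj pups, against 275, 276, 212, 257 and 287 CPM in untreated jj pups. Its levels were 300.1, 314, 309.6, 302 and 307 CPM in PT Nj pups, against 297, 275, 280.1, 257 and 270.2 CPM in untreated Nj pups. Untreated jj 3 was again the lowest library, the groups overlapped in jj pups, and they were apart in Nj pups. The log2 fold change was 0.14 ± 0.04 (SE; edgeR adjusted p = 0.0409). Uqcr11 (ENSRNOG00000016952), the smallest subunit, averaged 123 ± 8.16 CPM in PT pups and 113 ± 5.77 CPM in untreated pups (SD, n = 10 each; log2 0.12 ± 0.04, SE; edgeR adjusted p = 0.0409). The subunits that carry electrons did not pass: Cyc1, the cytochrome c1 gene, had a log2 fold change of 0.03 and Uqcrfs1, the Rieske iron-sulphur protein, of 0.06. Uqcrc1, the partner of Uqcrc2, stood at 0.03 (95% interval -0.03 to 0.08). The symbol Uqcrb names 2 rows, and RefSeq gives it also as an older name of a pseudogene, so reads may be shared between them. They had log2 fold changes of 0.15 (edgeR adjusted p = 0.051) and 0.11 (0.0977).

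Complex IV had the most called genes, 6 of 16, against 4.35% of all genes called higher. All 6 belonged to the 11 rows classed as ubiquitous subunits, in which both Cox6b1 rows were counted. Whether ubiquitous and alternative subunits differ was not tested. Cox4i1 (ENSRNOG00000017817), the regulatory subunit that binds ATP, had 419.7, 424, 382, 411 and 411 CPM in PT jj pups, against 378, 359, 388, 373 and 364 CPM in untreated jj pups. Cox4i1 in Nj pups had 407, 375, 385, 399 and 387 CPM with PT, against 382, 388, 339, 340.5 and 349.8 CPM without. In each genotype the ranges overlapped, and all 10 PT libraries lay above the untreated median. The log2 fold change was 0.13 ± 0.03 (SE; edgeR adjusted p = 0.0101).

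Cox7c (ENSRNOG00000030237), a small subunit spanning the membrane, had 136, 139, 133, 144 and 135 CPM in PT jj pups, against 119.9, 133, 131, 122 and 135 CPM in untreated jj pups. It had 137, 145, 134, 126 and 132 CPM in PT Nj pups, against 111, 123, 129, 112 and 121 CPM in untreated Nj pups. The ranges overlapped in jj pups, and in Nj pups only the lowest PT library fell within the untreated range. Cox7c had a log2 fold change of 0.14 ± 0.03 (SE; edgeR adjusted p = 0.0114). Cox6c (ENSRNOG00000010807), another small transmembrane subunit, had 144, 146, 146, 133 and 131 CPM in PT jj pups, against 139, 126, 113, 127 and 139 CPM in untreated jj pups. The same gene had 136, 146, 139, 134 and 141 CPM in PT Nj pups, against 127, 124, 129, 111 and 123 CPM in untreated Nj pups. Its PT and untreated libraries were apart in Nj pups and overlapped in jj pups (log2 0.15 ± 0.04, SE; edgeR adjusted p = 0.0134). Ndufa4, Cox5a and Cox7b also rose, by 0.13, 0.14 and 0.14 on the log2 scale (edgeR adjusted p = 0.0173, 0.0274 and 0.041). Cox8a had the largest fold change among the nuclear genes of complex IV (log2 0.16) but did not pass (edgeR adjusted p = 0.109), with 247 CPM in untreated jj 3 and 166 to 187 CPM in the other 4 untreated jj libraries. Cox5b had a log2 fold change of -0.01 (95% interval -0.13 to 0.12).

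**Figure D3:**
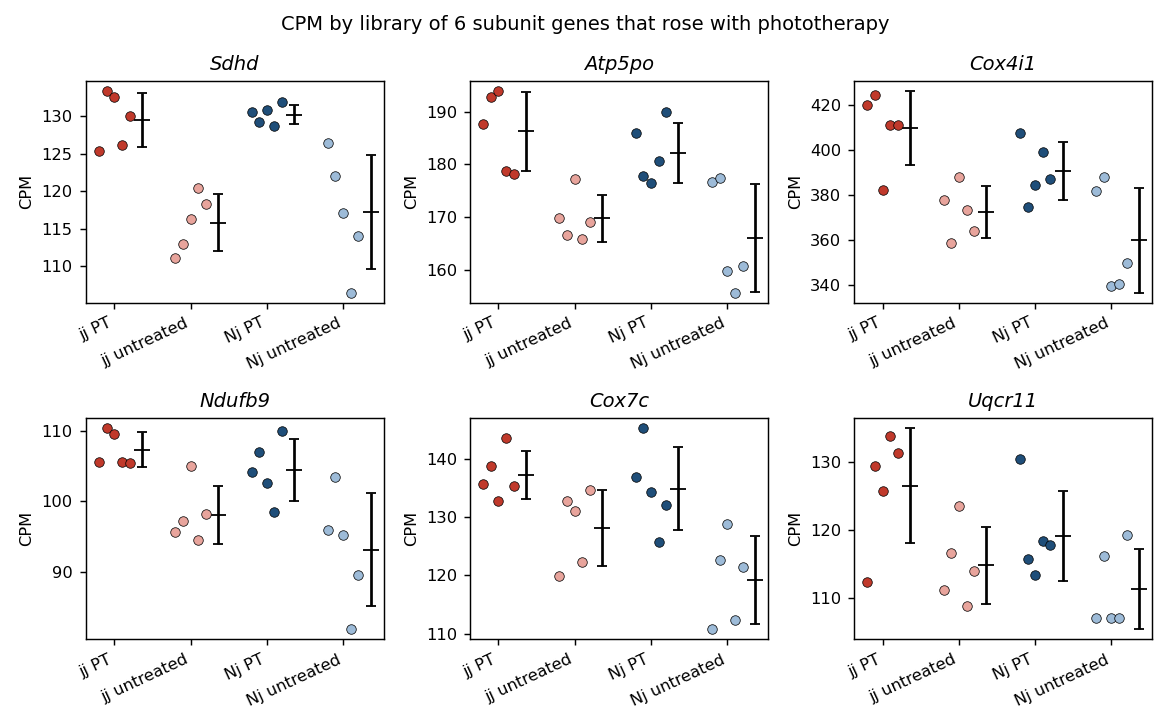
CPM of 6 genes that rose with phototherapy, from complexes I (Ndufb9), II (Sdhd), III (Uqcr11), IV (Cox4i1, Cox7c) and V (Atp5po), with 1 point per library and bars of mean ± SD (n = 5); the axes do not start at 0. For Sdhd the PT libraries of each genotype lie above all untreated libraries of that genotype (125 to 133 CPM in PT jj pups, against 111 to 120.5 CPM in untreated jj pups).

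The alternative isoforms and paralogs of complex IV, 5 genes in all, did not pass by edgeR, and 1 of them (Cox7a2l2) had an unadjusted p under 0.05, a level reached by 24.6% of all genes. Cox4i2, the oxygen-responsive lung isoform of subunit 4, ranged over 0.924 to 2.39 CPM in PT pups and 1.20 to 2.14 CPM in untreated pups (log2 -0.02, 95% interval -0.31 to 0.27). Cox6b2, known from testis, ranged over 3.73 to 5.91 CPM in PT pups and 4.06 to 5.51 CPM in untreated pups (log2 0.03), and Ndufa4l2, known to be induced by low oxygen, over 2.86 to 4.82 CPM in PT pups and 3.02 to 5.22 CPM in untreated pups (log2 -0.06). Cox6a1 just missed the threshold (log2 0.09 ± 0.03, SE; edgeR adjusted p = 0.0513). Cox7a2l, which helps complexes III and IV to associate, had a log2 fold change of 0.05 (edgeR adjusted p = 0.272), and its paralog Cox7a2l2 of 0.09 (0.144). The symbol Cox6b1 names 2 rows that may share reads, with log2 fold changes of 0.10 and 0.11, neither of which passed. Below the minimum of the rule lay the heart and muscle isoforms Cox6a2, Cox7a1 and Cox8b, with means of 8.75, 1.05 and 0.3 reads, and the testis forms Cox7b2 and Cox8c, with 1.05 and 0.05. Ndufa1, Ndufa10l1, the pseudogene Cox6c-ps1, Atp5pb and a further Ndufv3 row were also below it, with 1.6, 0.45, 0, 7 and 9.3 reads. Atp5pb ran from 0 to 105 reads between libraries. Whether the low counts of these rows reflect expression or the gene annotation was not tested. Cox4i2 was the lowest above the minimum, with a mean of 37 reads.

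In ATP synthase, 4 of 15 nuclear genes rose, against 4.35% of all genes. Atp5po (ENSRNOG00000001991), the OSCP subunit that ties the peripheral stalk to the catalytic head, had 188, 193, 194, 179 and 178 CPM in PT jj pups, against 169.8, 167, 177, 166 and 169 CPM in untreated jj pups. Atp5po had 186, 178, 177, 181 and 189.9 CPM in PT Nj pups, against 177, 177, 159.8, 156 and 161 CPM in untreated Nj pups. In jj pups the groups did not overlap, at 178.1 against 177.3 CPM at their nearest, and in Nj pups only the lowest PT library fell within the untreated range. The log2 fold change was 0.13 ± 0.03 (SE; edgeR adjusted p = 0.00657). Another peripheral stalk gene, Atp5pf (ENSRNOG00000001551), encoding coupling factor 6, had 97.8, 109, 116, 103 and 107 CPM in PT jj pups, against 98.2, 88.0, 90.4, 92.9 and 104 CPM in untreated jj pups. Its Nj values were 105, 103, 106, 106 and 109 CPM with PT, against 107, 98.2, 96.4, 88.4 and 92.6 CPM without. Both genotypes overlapped, with untreated jj 5 and untreated Nj 1 the highest untreated libraries (log2 0.15 ± 0.04, SE; edgeR adjusted p = 0.013). Atp5pd, the third measured stalk gene, had a log2 fold change of 0.10 and did not pass (edgeR adjusted p = 0.0689).

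The c ring, the rotor that turns as protons pass, is built from 1 mature protein encoded by 3 genes. Atp5mc3 (ENSRNOG00000001596) rose (log2 0.14 ± 0.03, SE; edgeR adjusted p = 0.0134), with 249.5 ± 9.97 CPM in PT pups and 227 ± 14.4 CPM in untreated pups (SD, n = 10 each). Atp5mc1 averaged 127 ± 6.07 CPM in PT pups and 123 ± 7.02 CPM in untreated pups (log2 0.05; edgeR adjusted p = 0.36). Atp5mc2 averaged 164 ± 12.0 CPM in PT pups and 166 ± 11.3 CPM in untreated pups (log2 -0.02; edgeR adjusted p = 0.819). The difference between the c genes was not tested. Atp5mf, a small membrane subunit, rose by 0.10 on the log2 scale (edgeR adjusted p = 0.0409). Atp5f1a and Atp5f1b, the alpha and beta subunits that make ATP, had log2 fold changes of -0.00 (95% interval -0.05 to 0.05) and 0.01 (-0.05 to 0.06). None of the 4 measured genes of the head and central stalk passed by edgeR, 0 had an unadjusted p under 0.05, against 24.6% of all genes, and the median log2 fold change over them was 0.00.

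The 13 transcripts of the mitochondrial genome all had positive fold changes with PT, against 50.4% of all genes. The changes ran from 0.03 (Mt-co3) to 0.26 (Mt-atp8) on the log2 scale, and 0 passed by edgeR, against 10.1% of all genes. At an unadjusted p under 0.05 there were 3, against 24.6% of all genes: Mt-cyb, Mt-nd3 and Mt-nd1. Mt-cyb (ENSRNOG00000031766), the cytochrome b gene of complex III, had 5753, 5386, 5604, 5518 and 5409 CPM in PT jj pups, against 5653, 5398, 4469, 5469.7 and 5468 CPM in untreated jj pups. It had 5669.7, 5951, 5476, 5563 and 5774 CPM in PT Nj pups, against 5550.1, 5356, 5237, 4506 and 4801 CPM in untreated Nj pups. Within both genotypes the ranges overlapped, and the lowest values were those of untreated jj 3 and untreated Nj 4. The log2 fold change of Mt-cyb was 0.11 ± 0.04 (SE; edgeR adjusted p = 0.0912). Mt-nd3 and Mt-nd1, core membrane subunits of complex I, had log2 fold changes of 0.23 and 0.14 (edgeR adjusted p = 0.137 and 0.181). Of the other complex I transcripts, Mt-nd2, Mt-nd4, Mt-nd4l and Mt-nd5 had log2 fold changes of 0.19, 0.23, 0.25 and 0.17. Mt-co1 and Mt-co2 of complex IV stood at 0.11 and 0.14, and Mt-atp6, the proton channel of ATP synthase, at 0.15.

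The spread of these transcripts between pups of a group rested largely on 1 library. The median coefficient of variation within groups was 13.8% over the 13 and 5.77% over the 79 nuclear genes, and 8.68% over all genes tested. Without untreated jj 3 it was 7.05% over the 13, 5.10% over the nuclear genes and 7.86% over all genes. Mt-nd4l, of complex I, had 289.8, 259, 54.9, 265 and 283 CPM in untreated jj pups, so library 3 reached 20.02% of the mean of the other 4. Mt-co1 (ENSRNOG00000034234), the catalytic subunit of complex IV, had 11783, 11498, 12865, 11823 and 12227 CPM in PT jj pups, against 11999.6, 11940.0, 7564, 11547 and 12622 CPM in untreated jj pups. In Nj pups it had 11871, 13494, 12264, 12598 and 12882 CPM with PT, against 11759.9, 11689, 12379, 11130.1 and 11327 CPM without. The groups overlapped, and untreated jj 3 was far below the others, at 62.9% of the mean of the other 4 untreated jj libraries. Over the 13 transcripts this share ran from 20.02% (Mt-nd4l) to 81.3% (Mt-cyb). The deficit was thus uneven between transcripts of the same genome.

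**Figure D4:**
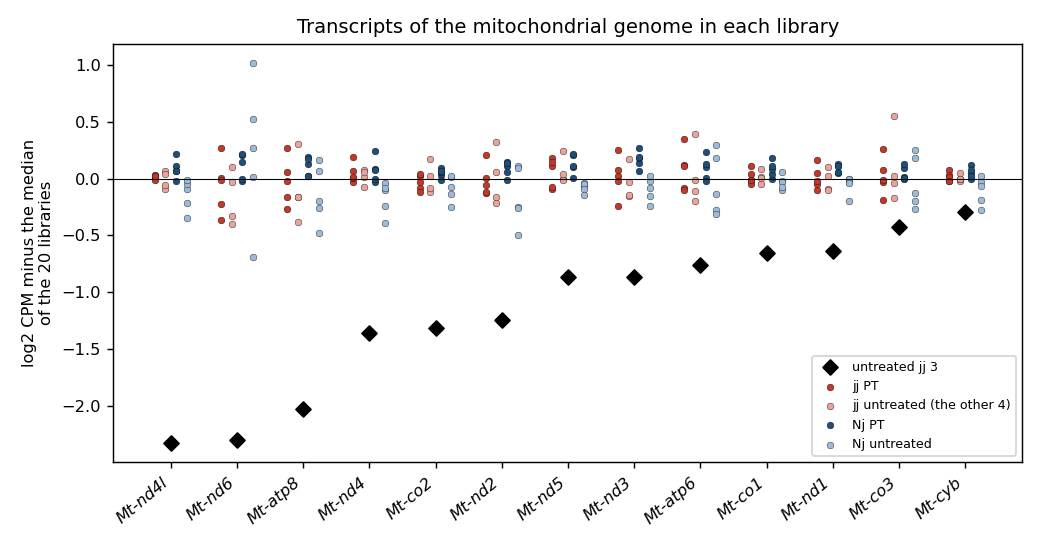
Log2 CPM of the 13 transcripts of the mitochondrial genome in each library, minus the median of the 20 libraries, with untreated jj 3 as black diamonds and the transcripts ordered by its level. Its deficit runs from Mt-nd4l, at 20.02% of the mean of the other 4 untreated jj libraries, to Mt-cyb, at 81.3%.

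Without untreated jj 3 the summed mitochondrial level of the untreated jj pups was 40726 ± 3333 CPM (SD, n = 4), against 40625 ± 1639 CPM in PT jj pups (n = 5). Without that library the median log2 fold change of the 13 with PT was 0.09, and Mt-co3 and Mt-nd6 turned negative (-0.01 and -0.06). In the same fit 30 of the 92 genes rose in place of 19, and 29 rose when library sizes were also taken from nuclear genes alone. The share of all genes called in these fits is not given, so the counts are not read as particular to the subunits. Mt-nd6, the sole transcript measured from the other strand, was the most scattered. It had 33.2, 32.8, 39.9, 25.7 and 28.3 CPM in PT jj pups, against 25.1, 35.5, 6.69, 26.3 and 32.3 CPM in untreated jj pups. It had 36.5, 38.0, 32.6, 38.3 and 32.8 CPM in PT Nj pups, against 39.9, 33.3, 66.9, 20.4 and 47.6 CPM in untreated Nj pups. Untreated Nj 3 was the highest and untreated jj 3 the lowest of all libraries. The mitochondrial genes Mt-atp6 and Mt-atp8, and Mt-nd4 and Mt-nd4l, overlap. The sources used here do not state whether reads were counted by strand. Single values of these genes, and of Mt-nd6 on the other strand, are therefore uncertain.

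Within Nj pups alone, 2 genes rose with PT and 0 fell, against 1.49% of all genes called higher and 2.51% called lower (4% in all). They were Cox7c (log2 0.18 ± 0.05, SE; edgeR adjusted p = 0.0381) and Sdhd (log2 0.15 ± 0.04, SE; edgeR adjusted p = 0.0403), with n = 5 each in an edgeR fit of all 20 libraries. The count was sensitive to single libraries: it was 7 without untreated Nj 2, 1 without untreated Nj 3, and 0 without untreated Nj 4, untreated Nj 5, PT Nj 1, PT Nj 2 or PT Nj 5. For those fits the share of all genes called is not given. At an unadjusted p under 0.05 there were 27, all higher, against 8.25% of all genes called higher at that level. The 5 PT libraries lay above all 5 untreated ones for 11 genes, against 3.07% of all genes. These were Sdhd, Cox6c, Ndufs4, Ndufb5, Ndufc1, Uqcrc2, Atp5mf, Mt-nd1, Mt-nd3, Mt-nd4 and Mt-nd5.

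Within jj pups alone, 0 of the 92 passed by edgeR, where 0.0393% of all genes were called higher and 0.164% in either direction. DESeq2 called 3, but the share of all genes it called is not given, so that count is not read as particular to the subunits. At an unadjusted p under 0.05 in the edgeR fit there were 19, all higher, against 5.64% of all genes. Those whose PT and untreated libraries did not overlap were Sdhd, Atp5po and Ndufb9, against 1.27% of all genes. The median log2 fold change over the nuclear genes was 0.09 in jj pups and 0.09 in Nj pups. Over the mitochondrial genes it was 0.15 in jj pups and 0.16 in Nj pups, but 0.03 in jj pups without untreated jj 3. Of the 79 nuclear genes, 60 were positive in both genotypes, as were 12 of the 13 mitochondrial ones, against 35% of all genes. Without untreated jj 3 these counts were 63 of 79 and 8 of 13, against 33.3% of all genes. The difference between the genotypes' responses was tested as an interaction. By edgeR 0 genes passed, against 0% of all genes, and DESeq2 also called 0 of the 92. Ndufa9 alone had an unadjusted p under 0.05, against 3.41% of all genes (log2 0.12 ± 0.06, SE; unadjusted p = 0.0424 in the edgeR fit). It was singled out after its values were seen, and its log2 fold change was 0.10 in jj pups and -0.02 in Nj pups.

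**Figure D5:**
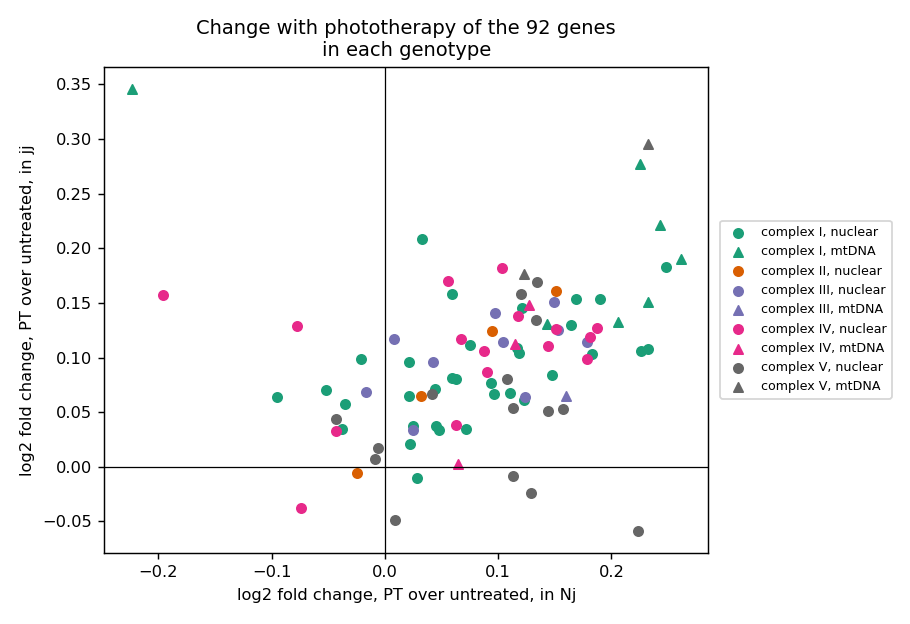
Log2 fold change of each of the 92 genes with phototherapy in Nj pups (x axis) and in jj pups (y axis), coloured by complex, with circles for nuclear and triangles for mitochondrial genes. Positive on both axes are 60 of 79 nuclear and 12 of 13 mitochondrial genes (8 of 13 without untreated jj 3, which is included here); the triangle at the far upper left is Mt-nd6.

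Jaundice went with no called change. The untreated jj and untreated Nj libraries share no title prefix, so genotype and whatever the prefix stands for cannot be told apart between them. Between jj and Nj pups without light, 0 of the 92 passed by edgeR and 0 by DESeq2, and edgeR called 0% of all genes. At an unadjusted p under 0.05 there were 5, against 6.36% of all genes: Ndufa13, Ndufb11, Cox7c and Atp5f1e were higher and Mt-nd6 lower. Ndufa13, an accessory subunit of complex I, had 91.0, 88.4, 116, 91.0 and 88.1 CPM in untreated jj pups, against 82.3, 87.2, 82.2, 88.3 and 83.8 CPM in untreated Nj pups (log2 0.16 ± 0.07, SE; edgeR adjusted p = 0.775). The highest value was again that of untreated jj 3, and the groups overlapped. Cox8a had 187, 178, 247, 171 and 166 CPM in untreated jj pups, against 177, 187, 150.1, 164 and 164 CPM in untreated Nj pups (log2 0.17 ± 0.09, SE; edgeR adjusted p = 0.775). Here too library 3 was the highest. Atp5f1e, the epsilon subunit of the ATP synthase stalk, had a log2 fold change of 0.16 ± 0.07 (SE; edgeR adjusted p = 0.775), with 190.4 CPM in untreated jj 3 and 133 to 151 CPM in the other untreated jj libraries. Atp5me, a small membrane subunit of the same enzyme, had a log2 fold change of 0.14, and Uqcrc2 and the lower of the Uqcrb rows, the complex III genes with the lowest p-values, of -0.08 and -0.08. The median log2 fold change was 0.02 over the nuclear genes and -0.07 over the mitochondrial ones, and the mitochondrial median was 0.09 without untreated jj 3.

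Under phototherapy, jj and Nj pups also did not differ in a called gene (0 of 92 by edgeR, 0 by DESeq2, 0% of all genes by edgeR). At an unadjusted p under 0.05 there were 4, against 6.62% of all genes: Ndufa7 and Ndufs7 were higher in jj pups and the Uqcrb row named above and Atp5md lower. All 13 mitochondrial transcripts had negative fold changes in the jj pups, where 51.2% of all genes had positive ones, with a median log2 fold change of -0.07 and a range of -0.16 to -0.01, and 0 of them had an unadjusted p under 0.05. That median was 0.03 when the libraries high in Ttr were left out. The summed mitochondrial level was 40625 ± 1639 CPM in PT jj pups and 42320.3 ± 1375 CPM in PT Nj pups (SD, n = 5 each). Atp5md, a small membrane subunit of ATP synthase that was picked after its values were seen, had 13.6, 12.9, 13.0, 10.1 and 10.8 CPM in PT jj pups, against 16.9, 15.2, 20.5, 14.1 and 15.5 CPM in PT Nj pups. The groups did not overlap, as was so for 1.2% of all genes in either direction, and the gene did not pass (log2 -0.44 ± 0.16, SE; edgeR adjusted p = 0.724).

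The neighbouring pathways were read from lists of genes in the averaged comparison, where 4.35% of all genes were called higher and 5.74% lower. Of 50 assembly factors tested, which build the complexes but are not part of them, 6 rose and 0 fell, with a median log2 fold change of 0.06. They were Ttc19 (log2 0.19) and Uqcc1 (0.15) and Lyrm7 (0.19) of complex III, Sdhaf2 (0.15) of complex II, Cox17 (0.18), which delivers copper to complex IV, and Atpaf1 (0.15) of the ATP synthase head. Of 18 genes of the citric acid cycle and its feeder enzyme, 5 rose. Sucla2, a subunit of succinyl-CoA ligase, averaged 129 ± 8.07 CPM in PT pups and 107 ± 11.8 CPM in untreated pups (SD, n = 10 each; log2 0.26; edgeR adjusted p = 0.00473). Idh3a and Idh3b of isocitrate dehydrogenase and Dld and Dlat of the pyruvate dehydrogenase complex rose by 0.19, 0.12, 0.24 and 0.13 on the log2 scale.

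Of 23 carriers and uncoupling proteins, 3 rose and 1 fell, against 4.35% of all genes called higher and 5.74% called lower. Slc25a4, the ADP/ATP exchanger of heart and brain, averaged 806 ± 9.44 CPM in PT pups and 740 ± 32.0 CPM in untreated pups (SD, n = 10 each; log2 0.12; edgeR adjusted p = 0.00472). Slc25a3, the phosphate carrier, rose by 0.09 and Slc25a14, an uncoupling protein of brain, by 0.20 on the log2 scale, while Slc25a1, the citrate exporter, fell by 0.17. Of 74 genes of the mitochondrial ribosome, 4 rose, a share near the 4.35% of all genes called higher, and 0 fell. The median log2 fold change over the 74 was 0.05. The 4 that rose were Mrpl16 (log2 0.18), Mrpl32 (0.17), Mrpl17 (0.12) and Mrpl18 (0.12). Mrps36 (0.21), listed with them by its symbol, also rose, and RefSeq names it Kgd4, a subunit of the 2-oxoglutarate dehydrogenase complex.

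Of 24 regulators of mitochondrial biogenesis, 0 rose and 1 fell, a share near the 5.74% of all genes called lower. That gene was Pprc1, a coactivator related to PGC-1, which averaged 46.1 ± 2.46 CPM in PT pups and 50.4 ± 2.82 CPM in untreated pups (SD, n = 10 each; log2 -0.13; edgeR adjusted p = 0.0326). The main coactivator Ppargc1a (log2 0.05), the transcription factors Nrf1 (-0.08) and Gabpa (0.07), and Tfam (0.03) and Polrmt (0.04), which transcribe the mitochondrial genome, did not pass (edgeR adjusted p = 0.538, 0.156, 0.548, 0.655 and 0.69).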

How the data were processed

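PolyA RNA of hippocampal lobes from 20 Gunn rat pups was sequenced. The authors deposited whole-number read counts for 32883 rat Ensembl genes. FastQC, TopHat2 2.0.13, Subread and edgeR are named, per the submitters' processing notes. Those notes name a mouse build although the gene identifiers are rat; the rat build and the use of strand are not given in the sources used here. Coordinates were therefore taken only from RefSeq's promoter table for GRCr8.

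Counts were fitted with edgeR 4.0.16 (limma 3.58.1, R 4.3.3) on all 20 libraries, with 4 groups and 6 contrasts, TMM scaling, filterByExpr and robust quasi-likelihood tests. Benjamini-Hochberg adjustment ran over the 15272 genes kept, with a threshold of 0.05. The averaged contrast is the mean of the PT effects in jj and Nj pups. Intervals are 1.96 SE either side. CPM used TMM-scaled library sizes summed over the 15272 genes kept. Over all listed genes the libraries held 16882652 to 27112749 counts. A library pair that agreed within sampling noise was looked for and not found (chi-square per degree of freedom 3.23 to 53.6). Motifs were searched with Python 3.11.15 and pandas 2.3.3, and figures drawn with matplotlib 3.10.9. The procedure was tested on simulated data: for the averaged contrast, over 15186 genes, it recovered 6% of genes changed 1.1-fold, 30% at 1.15-fold, 58% at 1.25-fold and 84% at 1.5-fold. It gave 7 false calls. The simulation changed 200 genes drawn without regard to level, whereas 1541 genes were called in the data, so these shares need not hold for the subunits.

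Genes described singly by rule were those of the mitochondrial genome, those that passed in any contrast and those with the lowest p in each complex. The rule also took complex II, isoforms, and called genes of the neighbouring lists. Other members, such as Ndufb3, Cox5b, Cyc1, Uqcrfs1, Uqcrc1, Atp5f1a, Atp5f1b and Atp5pd, were named outside the rule with their values known. The members and lists were chosen with earlier results of these data known. Alternatives covered normalization, filters, DESeq2 1.42.0 on all listed genes, subsets of libraries, Ttr as a covariate, and leaving out each library. Nuclear scaling without untreated jj 3, the spread and signs without that library, and the ribosome list without Mrps36 were added after seeing the data.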

Additional observations from a re-analysis of the deposited data

Results flagged for a closer look

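A library far from the other 4 of its group, by Dixon's test (critical value 0.71 for 5 samples), was found in 13 of 200 checks of gene and group, or 6.5%. Chance alone marks about 1 in 20 groups. Of the 13, 9 lay in untreated jj 3 and 6 concerned mitochondrial transcripts.

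In untreated jj 3, Mt-nd4l was at 54.9 CPM (259 to 290 CPM in the other 4 untreated jj libraries), Mt-nd4 at 46.6 CPM (113 to 126 CPM) and Mt-co2 at 1640 CPM (3760 to 4600 CPM). In the same library Mt-co1 was at 7560 CPM (11500 to 12600 CPM in the others) and Mt-cyb at 4470 CPM (5400 to 5650 CPM). The nuclear gene Ndufs1 was low there too, at 133 CPM (159 to 168 CPM in the others). Atp5me was high, at 108 CPM (75.1 to 82.3 CPM), as were Ndufa13 at 116 CPM (88.1 to 91 CPM) and Cox8a at 247 CPM (166 to 187 CPM).

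Elsewhere, Atp5mc3 was low in jj PT 4, at 227 CPM (250 to 256 CPM in the other 4). Ndufa4 was low in Nj PT 4, at 218 CPM (233 to 238 CPM). Atp5mc2 was low in untreated Nj 3, at 143 CPM (164 to 168 CPM), and Mt-nd1 in untreated Nj 4, at 2770 CPM (3090 to 3180 CPM).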

How the results depend on the processing

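No paired analysis was possible because no replicate number in the labels links pups of different groups. In the averaged PT comparison the 19 genes called higher became 21 with DESeq2 size factors, 15 without a filter, 22 with a mean count of at least 10, 26 with DESeq2's Wald test, 22 with nuclear scaling and 22 with Ttr as a covariate. The count was 30 with only the 3 untreated Nj libraries of the most common title prefix, 3 without the 7 libraries above 1000 CPM of Ttr (13 were kept) and 29 with nuclear scaling and no untreated jj 3. Leaving out a library gave 13 (untreated Nj 4) to 30 (untreated jj 3). Of the 19 genes, 2 (Atp5po and Cox6c) passed in all 30 alternatives, and 0 reversed. In Nj pups the count of 2 became 0 without a filter, 4 with a mean count of at least 10, 10 with DESeq2's Wald test, 8 with only the groups compared, 7 with the common prefix alone, 0 without the libraries high in Ttr, 18 with nuclear scaling and no untreated jj 3, and 0 to 7 on leaving out a library. In jj pups DESeq2 called 3 in place of 0. The 2 genotype comparisons and the interaction had 0 called genes in every alternative run. The share of all genes called in each alternative is not given, so a change in these counts may not be particular to the subunits. The averaged log2 fold changes of some genes that did not pass changed sign. Cox4i2 became 0.0078 with the common prefix, 0.087 without libraries high in Ttr, 0.012 with nuclear scaling and no untreated jj 3, and -0.085 to 0.054 on leaving out a library. Without libraries high in Ttr, Ndufa13 was -0.017 and Mt-co3 -0.0024, and Ndufa13 was -0.028 with Ttr as a covariate. With nuclear scaling and no untreated jj 3, Atp5mc2 was 0.00033, Mt-nd6 -0.058 and Mt-co3 -0.011. Ndufa4l2 was 0.037 with the common prefix. On leaving out a library, Sdhb ran from -0.022 to 0.0038, Atp5mc2 from -0.036 to 0.010, Ndufa13 from -0.0022 to 0.054, Mt-nd6 from -0.057 to 0.18, Mt-co3 from -0.0093 to 0.12 and Cox6b2 from -0.0096 to 0.069. The cause was not tested. The rises of 6.97% to 12.5% were small, and the spread between pups had a median coefficient of variation of 5.77% for nuclear genes. A gene that did not pass may still differ by as much, unless its interval ends below these rises. The intervals of Atp5f1a, Atp5f1b, Sdhb and Uqcrc1 did end below them.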
